A study of Mus musculus with 12 samples.

Results

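Livers taken 6 h after a 70% partial hepatectomy were compared with sham-operated livers in 6 of the 12 RNA-seq libraries of the series, 3 titled as 6 h after resection and 3 titled as controls. All mice were wild-type C57/BL6J, the tissue was whole liver, and poly(A) RNA was sequenced. The only differences given in the labels are the operation, sham or resection of 70% of the liver, and the hour of sampling, and no hour is given for the sham livers. The other 6 libraries, 3 at 3 h and 3 at 12 h after resection, were used to estimate the spread and to show where the 6 h level stood apart. The third 6 h library is titled 6 h but tagged 7 h, and its title was followed. Whether replicates are different mice is not stated in the labels. If they are not, the p-values reflect a technical spread.

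After resection of most of the liver, hepatocytes of the remaining lobes leave quiescence under cytokine and growth factor signals and enter DNA synthesis about a day later in mice. In the hours before that they make the machinery of protein synthesis, and as the main source of plasma proteins they also answer the wound with secretion of acute phase proteins. Secreted proteins enter the endoplasmic reticulum (ER) through the translocon, are folded and glycosylated there, and leave in vesicles with a COPII coat. When unfolded protein builds up in the ER, the sensors IRE1, PERK and ATF6 raise the transcription of chaperones, of the degradation machinery (ERAD) and of vesicle coat genes, which is called the unfolded protein response.

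Each library held 15573405 to 17199639 counts. Of the genes in the table, 11451 with 1 FPKM or more (the deposited level, scaled by gene length and library size) in at least 3 of the 12 libraries were tested. Differences are log2 values of 6 h minus sham from the edgeR quasi-likelihood test, with their standard error (SE), and a gene was called at a Benjamini-Hochberg adjusted p under 0.05. The first sham library differed most from its group: its mitochondrially encoded share of counts was 11.9%, against 6.26% and 5.52% in the other sham libraries. In 6 h replicate 3, the library with the 7 h tag, that share was 8.49%, against 6.26% and 6.91% in the other 6 h libraries. The liver label was checked on 10 hepatocyte marker transcripts, of which 2 rose (20%, near the 16.8% of all tested genes). They summed to 38750 to 40440 FPKM in sham livers and 37610 to 43380 FPKM at 6 h. Their share of all counts was lower at 6 h without overlap, 7.82% to 8.70% against 9.745% to 10.11% in sham livers. A share of counts also depends on the other transcripts, and the acute phase list held 5.775% to 6.793% of counts in sham livers and 16.71% to 18.08% at 6 h. In bulk tissue, fewer cells of a type, less RNA per cell and more RNA of other genes cannot be told apart by a share of counts. The part of each was not tested.

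At 6 h, 1924 genes were higher (16.8% of the tested genes) and 2080 lower (18.2%) than in sham livers, 4004 in all (35%). Of these, 826 were at least 2-fold higher and 1031 at least 2-fold lower, and 135 and 88 differed by at least 8-fold. The 6 libraries did not overlap between the groups for 43.9% of the tested genes. Scaling by library totals in place of TMM shifted the median of all genes by -0.31, which turned the calls to 1048 higher and 3686 lower, so directions are given relative to the bulk of genes. Without sham replicate 1 and 6 h replicate 3 together, 2187 genes were higher and 2168 lower. Direct tests found 4.45% of genes higher and 4.18% lower at 6 h than at 3 h, and 12.6% higher and 12.1% lower than at 12 h. At 6 h, 148 genes (1.29%) were higher and 175 (1.53%) lower than in sham, 3 h and 12 h livers alike. These last counts were sensitive to single libraries. Without 6 h replicate 2 there were 53 and 84, without 6 h replicate 3 there were 72 and 95, and without sham replicate 1 there were 317 and 335. The same exclusions left 212, 247 and 1068 genes higher at 6 h than at 3 h (509 with all libraries) and 189, 205 and 1043 lower (479). Against 12 h, 1441 genes were higher with all libraries, 906 without 6 h replicate 2 and 2229 without sham replicate 1.

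**Figure D1:**
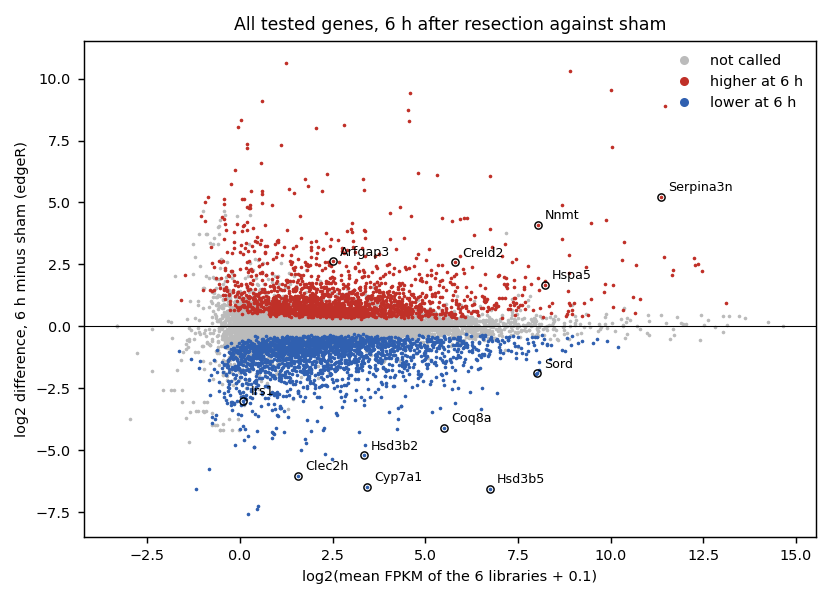
Every tested gene is a point, with its mean level over the 3 sham and 3 6 h libraries on the x axis as log2(mean FPKM + 0.1) and its log2 difference on the y axis. The 1924 genes called higher at 6 h are red, the 2080 called lower are blue, and circles mark genes named in the text, such as Hsd3b5 and Serpina3n.

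Genes of the secretory pathway were often higher at 6 h than in sham livers, and in many cases higher than at 3 h as well. Of 46 tested genes of COPII, COPI and Golgi transport, 31 were higher than in sham livers (67.4%, against 16.8% of all tested genes), 1 was lower, and 24 were higher than at 3 h (52.2%, against 4.45% of all genes). Of 32 genes of ER translocation and signal peptide processing, 18 were higher than sham and 15 higher than at 3 h, and 0 were lower than sham by the edgeR test, at an unadjusted p under 0.05 or by DESeq2. Of 31 ER chaperones and folding enzymes 14 were higher than sham, and of 25 genes of the unfolded protein response and ERAD 14 were higher. Of the members higher than sham, 23 of 31 transport, 14 of 18 translocation, 9 of 14 chaperone and 7 of 14 unfolded protein response genes were also higher than at 3 h. The median log2 differences of these lists were 0.62, 0.51, 0.51 and 0.58 in that order, against -0.01 over all tested genes. With scaling by library totals the counts of higher genes were 19, 12, 7 and 6. Without sham replicate 3 the chaperone count fell to 9, and without 6 h replicate 2 the unfolded protein response count fell to 9. Without sham replicate 1, 3 chaperone genes and 3 transport genes were called lower.

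Some inducible genes of the unfolded protein response carry the ER stress element, which the factors ATF6 and NF-Y bind, in their promoters. Shown here are 4 secretory genes picked because they rose and have a match to it, and other secretory genes that rose have none. The windows are the 250 bases before the RefSeq transcription start (GRCm38.p6), written 5′ to 3′ on the strand of the gene, with matches to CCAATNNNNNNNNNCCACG on either strand in capitals. They lie at chr2:34771840-34772089 (plus strand), chr15:88819396-88819645 (plus strand), chr19:6046326-6046575 (plus strand) and chr10:86705445-86705694 (minus strand).
Hspa5: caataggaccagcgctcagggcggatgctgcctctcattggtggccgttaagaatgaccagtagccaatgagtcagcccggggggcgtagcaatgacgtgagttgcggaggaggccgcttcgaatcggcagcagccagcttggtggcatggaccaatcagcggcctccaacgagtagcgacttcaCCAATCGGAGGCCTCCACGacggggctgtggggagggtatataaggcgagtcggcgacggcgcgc
Creld2: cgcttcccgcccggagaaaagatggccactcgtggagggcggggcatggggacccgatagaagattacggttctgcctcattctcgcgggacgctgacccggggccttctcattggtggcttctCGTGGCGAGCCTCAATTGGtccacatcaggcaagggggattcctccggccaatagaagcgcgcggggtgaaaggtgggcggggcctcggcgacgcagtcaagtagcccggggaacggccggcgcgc
Syvn1: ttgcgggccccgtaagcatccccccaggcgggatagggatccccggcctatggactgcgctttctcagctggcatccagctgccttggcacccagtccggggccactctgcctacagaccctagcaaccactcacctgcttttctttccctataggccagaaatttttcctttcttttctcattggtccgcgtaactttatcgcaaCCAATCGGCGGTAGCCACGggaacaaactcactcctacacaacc
Hsp90b1: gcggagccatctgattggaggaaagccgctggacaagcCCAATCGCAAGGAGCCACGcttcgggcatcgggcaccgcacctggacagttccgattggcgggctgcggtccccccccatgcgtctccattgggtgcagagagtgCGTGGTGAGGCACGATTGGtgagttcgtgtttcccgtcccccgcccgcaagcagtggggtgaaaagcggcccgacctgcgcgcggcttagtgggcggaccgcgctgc
The match begins 65 bases before the start in Hspa5 and 44 bases before it in Syvn1. In Creld2 it begins 126 bases before the start and lies on the opposite strand. Hsp90b1 has a match 212 bases before the start and another, on the opposite strand, 107 bases before it. The Creld2 match, at chr15:88819520-88819538, is at the same time the match of Alg12, the neighbouring gene on the minus strand, in whose window it begins 220 bases before the start. Alg12, a mannosyltransferase of ER glycosylation, had 2.62, 3.103 and 3.598 FPKM in sham livers and 8.97, 11.4 and 10.7 FPKM at 6 h (1.71 ± 0.198, adjusted p = 2.6e-05).

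Matches to this element were found in 37 of 32851 promoter windows (0.113%), in the windows of 16 of 8126 tested genes with a RefSeq window (0.197%), and in 7 of the 23 ER chaperone genes with a window (30.4%). In the other secretory lists, 2 of 21 unfolded protein response genes with a window had a match (9.52%). Among genes with a window, 0 of 42 transport genes and 0 of 24 translocation genes had one. Of the 16 tested genes with a match, 7 were higher than sham (43.8%, against 16.8% of all tested genes) and 4 higher than at 3 h. The 4 were Hspa5, Creld2, Syvn1 and Alg12, and the other 3 that rose were Hsp90b1, Dnajc3 and Acnat2. Hsp90b1, the chaperone GRP94, rose by 0.66 ± 0.19 with all libraries, and its call was lost without sham replicate 3 or 6 h replicate 3. Canx, Calr and Pdia6 also have a match and were not called. The UPR element, TGACGTGG, was found in 0.563% of all windows, and in 5 of the 42 transport genes with a window (11.9%). Of the 70 tested genes with this element, 20 were higher than sham (28.6%), 12 lower (17.1%) and 14 higher than at 3 h (4.45% of all genes were). Over all tested genes 16.8% were higher than sham and 18.2% lower, so the share lower is near that of all genes. In Sec24d, a COPII cargo adaptor, the element begins 26 bases before the start (chr3:123267430-123267495, plus strand), shown here in capitals with its flanks.
Sec24d: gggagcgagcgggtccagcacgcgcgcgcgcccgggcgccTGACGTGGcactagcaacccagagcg
A match is a run of letters and not a measured binding site. The genes Alg12, Canx, Calr, Pdia6, Derl3, Pdia3, Dnajc3, Hsp90b1, Acnat2, Ern1, Lrrc59, Arf5 and Stat3 were chosen for naming after their values were seen.

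Among the chaperones, Hspa5 (chr2:34771970-34777547), which encodes BiP, the major chaperone of the ER, had 143, 171 and 106 FPKM in sham livers and 357, 531 and 484 FPKM at 6 h. All 6 h libraries lay above all sham libraries, a log2 difference of 1.68 ± 0.21 (SE, adjusted p = 5.1e-05). The 3 h libraries, at 159, 148 and 195 FPKM, overlapped those of sham, and 6 h was higher than 3 h by 1.46 ± 0.21 (adjusted p = 0.0014). Creld2, a folding factor secreted under ER stress, had 8.27, 22.7 and 15.5 FPKM in sham livers and 75.1, 129 and 81.1 FPKM at 6 h, and its groups did not overlap (2.59 ± 0.301, adjusted p = 2.6e-05). Manf, a secreted ER stress protein, had 11.4, 20.2 and 10.6 FPKM in sham livers and 49.4, 78.4 and 62.2 FPKM at 6 h, again without overlap (2.14 ± 0.26, adjusted p = 3.4e-05). Hyou1, a large BiP-related chaperone, rose from 14.2 ± 4.76 to 50.3 ± 12.9 FPKM (SD, n = 3 each). Dnajb9, a co-chaperone of BiP, had 37.3, 15.3 and 10.4 FPKM in sham livers and 66.3, 86.5 and 93.8 FPKM at 6 h, and the high value of sham replicate 1 narrowed the difference, which was 1.95 with it and 2.65 without it. Dnajb9 was below its sham mean at 3 h, with 8.49, 12.7 and 20.9 FPKM, and its 6 h level was 2.57 ± 0.43 above that (adjusted p = 0.0033). The abundant lectin chaperones and disulfide isomerases were not called. Canx, calnexin, had 91.3, 65.9 and 59.3 FPKM in sham livers and 69.7, 73.8 and 76.5 FPKM at 6 h (adjusted p = 0.99). Calr, calreticulin, had 221, 317 and 263 FPKM in sham livers and 327, 359 and 339.6 FPKM at 6 h (0.33 ± 0.14, adjusted p = 0.096). The disulfide isomerases Pdia3 and Pdia6 had differences of 0.24 ± 0.18 and 0.21 ± 0.16 that did not pass the test (adjusted p = 0.34 and 0.33).

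Of the genes that sense and answer unfolded protein, Xbp1, the factor activated by IRE1 splicing, had 59.6, 76.1 and 67.96 FPKM in sham livers and 224, 227 and 224 FPKM at 6 h (1.701 ± 0.12, adjusted p = 7.1e-07), but its 6 h and 3 h levels were not called different (0.39 ± 0.12, adjusted p = 0.067). Syvn1, the ERAD ubiquitin ligase HRD1, had 11.7, 20.5 and 14.1 FPKM in sham livers and 45.2, 80.9 and 58.4 FPKM at 6 h. These were the highest of all 12 libraries, and the 3 h and 12 h libraries had 13.1, 14.3 and 16.3 and 22.4, 15.5 and 21.5 FPKM. The differences were 1.97 ± 0.25 against sham (adjusted p = 4.8e-05), 2.09 ± 0.25 against 3 h (adjusted p = 5.3e-04) and 1.62 ± 0.24 against 12 h (adjusted p = 4.4e-04). Wfs1, wolframin of the ER membrane, had 2.14, 2.2 and 2.36 FPKM in sham livers and 6.49, 8.71 and 8.09 FPKM at 6 h, and was higher than in sham, 3 h and 12 h livers alike (1.77, 2.1 and 1.16). Eif2ak3, which encodes the sensor PERK, rose from 2.31 ± 0.704 to 4.82 ± 1.08 FPKM (SD, n = 3 each, adjusted p = 0.0034) and was 1.7 ± 0.24 above 3 h. Creb3l2, an ER-anchored factor of secretory gene transcription, rose by 1.55 ± 0.25 (adjusted p = 3.7e-04). The 2 members that fell were Ern1, the sensor IRE1, at 11.1, 8.13 and 9.73 FPKM in sham livers and 5.15, 6.401 and 5.88 FPKM at 6 h (adjusted p = 0.0048), and Derl2, a Derlin of the ERAD machinery, which fell from 14.5 ± 2.398 to 8.67 ± 1.41 FPKM (SD, n = 3 each). The other 9 members were not called.

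At the translocon, Srprb, the membrane anchor of the signal recognition particle receptor, had 1.798, 2.24 and 1.97 FPKM in sham livers and 5.59, 8.84 and 6.41 FPKM at 6 h (1.77 ± 0.19, adjusted p = 1.4e-05). Its 3 h values, 1.84, 1.87 and 2.32 FPKM, overlapped those of sham, and 6 h was 1.802 ± 0.19 above them (adjusted p = 2.8e-04). Srp19 and Srp68, subunits of the signal recognition particle, rose by 1.27 ± 0.19 and 1.14 ± 0.13 (adjusted p = 1.7e-04 and 2.7e-05), and each was also higher than at 3 h and 12 h. Sec61g, a subunit of the translocon pore, had 8.98, 13.2 and 12.03 FPKM in sham livers and 23.3, 22.6 and 27.8 FPKM at 6 h. Spcs2, of the signal peptidase, had 20.5, 18.5 and 13.7 FPKM in sham livers and 29.02, 39.1 and 36.5 FPKM at 6 h. Ssr3, of the translocon-associated complex, rose by 0.899 ± 0.18 (adjusted p = 0.002), from 54.5 ± 15.2 to 104 ± 15.3 FPKM (SD, n = 3 each).

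In vesicle transport, Sec23b, the inner COPII coat protein, had 6.51, 6.39 and 3.903 FPKM in sham livers and 21.2, 28 and 24.1 FPKM at 6 h. The lowest 6 h value was over 3 times the highest sham value, and 6 h was 2.098 ± 0.21 above sham (adjusted p = 7.8e-06), 1.79 ± 0.21 above 3 h and 0.99 ± 0.202 above 12 h. Sec24d had 9.28, 10.6 and 7.72 FPKM in sham livers and 29.3, 35.1 and 31.4 FPKM at 6 h (1.77 ± 0.15, adjusted p = 2.6e-06). Sec22b, a SNARE that fuses these vesicles, had 10.5, 11.02 and 9.38 FPKM in sham livers and 25.6, 28 and 26.6 FPKM at 6 h (1.35 ± 0.12, adjusted p = 3.9e-06). Preb, the exchange factor that starts COPII assembly, rose from 10.1 ± 1.92 to 25.7 ± 3.11 FPKM, and Tmed3 and Tmed9, cargo receptors of early vesicles, rose from 3.67 ± 0.869 to 13.8 ± 3.68 FPKM and from 12.5 ± 4.21 to 30.02 ± 3.44 FPKM (SD, n = 3 each). Arfgap3, which releases the COPI coat at the Golgi, had 1.56, 1.78 and 1.25 FPKM in sham livers and 8.705, 11.2 and 8.86 FPKM at 6 h, and its 3 h values of 1.03, 0.943 and 1.25 FPKM lay at or under the lowest sham value of 1.25 FPKM. At 3.17 ± 0.21 (adjusted p = 8.9e-06) it had the largest difference from 3 h among the genes highest at 6 h that the naming rule took. Lrrc59, a ribosome-binding ER membrane protein, had 16.8, 20.4 and 14.3 FPKM in sham livers and 76.05, 92.1 and 68.9 FPKM at 6 h (2.17 ± 0.16, adjusted p = 8.6e-07). The single transport member that fell was Arf5, a small GTPase of the Golgi, at 33.3, 44.3 and 46.1 FPKM in sham livers and 27.1, 31.4 and 26.4 FPKM at 6 h. Of the 46 members of the transport list 10, or 21.7% against 1.29% of all genes, were higher at 6 h than at every other time and in sham.

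**Figure D2:**
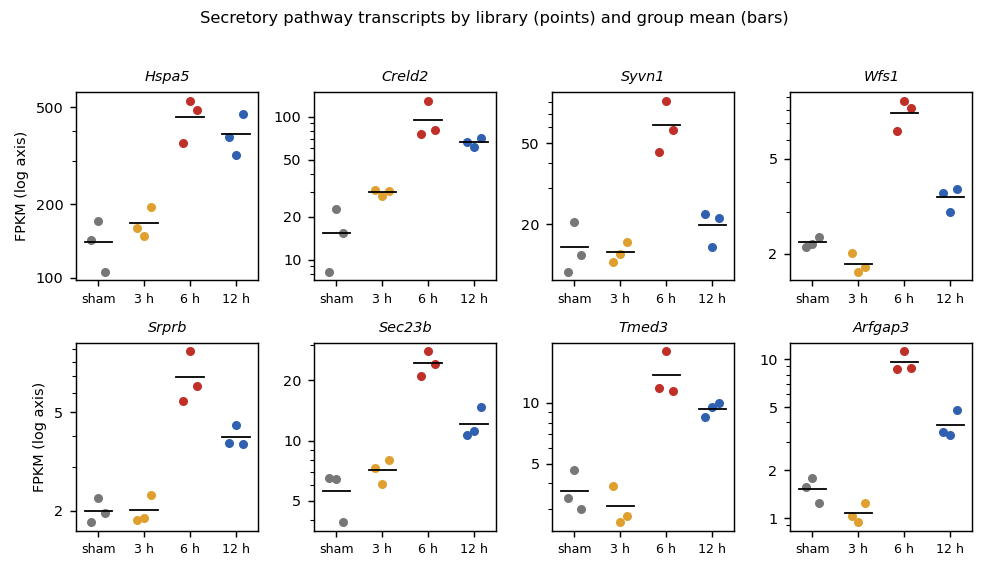
Each panel shows a gene, with the FPKM of every library (points, log axis) in sham livers and at 3, 6 and 12 h and the arithmetic group mean (bar). For Syvn1, Wfs1, Srprb, Sec23b, Tmed3 and Arfgap3 the 3 h points lie near sham, and the 6 h points are the highest of the 12.

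Acute phase genes, whose secreted products leave the hepatocyte by this route, rose too. Of 34 tested acute phase genes 29 were higher than sham (85.3%, against 16.8% of all tested genes) and 17 higher than at 3 h (50%, against 4.45%). Their median log2 difference was 2.50, and 0 were lower by edgeR, at an unadjusted p under 0.05 or by DESeq2. The list summed to 27650 to 30880 FPKM in sham livers and 90550 to 103100 FPKM at 6 h. In absolute terms the largest gain among called genes was that of Fga, the fibrinogen alpha chain, with 1471, 1608 and 1525 FPKM in sham livers and 8224, 9323 and 9187 FPKM at 6 h (2.51 ± 0.15, adjusted p = 1.7e-07). Haptoglobin (Hp) rose from 1221 ± 301 to 8547 ± 1271 FPKM, and hemopexin (Hpx), the haem scavenger, from 1954 ± 549 to 9270 ± 702 FPKM (SD, n = 3 each). Serpina3n, a protease inhibitor, had 147, 126 and 129 FPKM in sham livers and 4269, 5375 and 5734 FPKM at 6 h (5.23 ± 0.19, adjusted p = 6e-09). Serpina3k, an abundant relative of it, had 5573, 5763 and 6382 FPKM in sham livers and 10980, 10934 and 13174 FPKM at 6 h (0.96 ± 0.14, adjusted p = 1.3e-04). These Serpina3 genes lie in a cluster of close copies, and reads may be split between them. Of the 15 negative acute phase genes tested 1 rose and 2 fell (6.67% and 13.3%), under the 16.8% and 18.2% of all tested genes. Serpina7, thyroxine-binding globulin, was the single riser, with 8.08, 7.27 and 8.84 FPKM in sham livers and 27.7, 55.7 and 48.6 FPKM at 6 h. Serpina6, corticosteroid-binding globulin, and Pon1, paraoxonase, were lower, with differences of -1.16 ± 0.23 and -0.45 ± 0.15 (adjusted p = 0.0018 and 0.037), and the call of Pon1 was lost on leaving out sham replicate 1 or any of the 6 h libraries. Albumin (Alb), the main product of the liver, had 27609, 25282 and 22877 FPKM in sham livers and 22837, 27729 and 28248 FPKM at 6 h, and its difference of 0.03 ± 0.13 was far from the threshold (adjusted p = 0.89).

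The palindrome TTCNNNGAA, the core of STAT factor sites, which reads the same on both strands, was found in 7.02% of all windows and in 8 of the 27 acute phase genes with a window (29.6%). It is shown in capitals, with its flanks, for the fibrinogen alpha and beta chains (chr3:83025903-83025967, plus strand, and chr3:83049977-83050065, minus strand) and for Socs3 (chr11:117969472-117969560, minus strand), the feedback inhibitor of the IL-6 receptor. Both fibrinogen genes were higher at 6 h than in sham, 3 h and 12 h livers.
Fga: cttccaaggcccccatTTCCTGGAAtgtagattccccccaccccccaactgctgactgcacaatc
Fgb: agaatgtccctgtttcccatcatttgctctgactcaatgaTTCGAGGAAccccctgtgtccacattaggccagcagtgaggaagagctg
Socs3: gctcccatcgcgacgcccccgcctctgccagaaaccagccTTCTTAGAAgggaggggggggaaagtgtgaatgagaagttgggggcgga
The palindrome begins 234 bases before the start in Fga, 162 in Fgb and 154 in Socs3. Of the 564 tested genes with the palindrome, 117 were higher than sham and 104 lower, which is 20.7% and 18.4% against 16.8% and 18.2% of all tested genes.

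Receptors and feedback genes of the cytokine pathways were among the called genes, with 13 of 28 tested members of the IL-6 and IL-1 list higher and 7 lower (46.4% and 25%, against 16.8% and 18.2% of all tested genes). Socs3 had 0.692, 3.53 and 2.05 FPKM in sham livers and 58.7, 43.1 and 38.6 FPKM at 6 h (4.45 ± 0.41, adjusted p = 3.9e-06, and 5.05 without sham replicate 2). Il1r1, the signalling receptor of IL-1, had 7.25, 4.51 and 5.22 FPKM in sham livers and 93.9, 103 and 150.5 FPKM at 6 h (4.33 ± 0.31, adjusted p = 5.4e-07). Il1rn, its secreted antagonist, had 0.308, 0.291 and 0.263 FPKM in sham livers and 2.86, 4.47 and 5.65 FPKM at 6 h, and was also 1.76 ± 0.34 above 3 h (adjusted p = 0.0071). For the IL-1 receptor and its antagonist every 6 h library was above every sham library. Osmr, the oncostatin M receptor, rose by 3.32 ± 0.24 from a low level, with 0.262, 0.257 and 0.202 FPKM in sham livers and 2.01, 2.37 and 2.98 FPKM at 6 h. Stat3 had 9.68, 10.5 and 10.3 FPKM in sham livers and 32.8, 32.8 and 33.3 FPKM at 6 h, with very little spread within either group (1.67 ± 0.12, adjusted p = 5.4e-07). Of the 20 tested NF-kB factors and inhibitors 8 rose and 1 fell (40% and 5%). Among the risers were Bcl3, Nfkbiz and Zfp36 with 1.96 ± 0.36, 1.63 ± 0.24 and 1.59 ± 0.17. Tifa, an adaptor of TRAF6, had 5.57, 3.31 and 2.97 FPKM in sham livers and 71.95, 75.9 and 103 FPKM at 6 h. Alpk1, the kinase upstream of it, had 0.317, 0.274 and 0.174 FPKM in sham livers and 4.05, 5.22 and 7.75 FPKM at 6 h. Both were higher at 6 h than in sham, at 3 h and at 12 h (4.38, 1.33 and 2.101 for Tifa; 4.45, 1.82 and 1.105 for Alpk1).

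Among growth control genes, 14 of 25 tested MAPK feedback and IER genes rose and 2 fell (1 without sham replicate 2), which is 56% and 8% against 16.8% and 18.2% of all tested genes. Btg3, an antiproliferative factor, had 1.701, 1.26 and 1.06 FPKM in sham livers and 5.005, 7.54 and 12.4 FPKM at 6 h, and was higher than at 3 h and 12 h (1.48 and 1.42). Btg2, its relative, rose by 2.903 ± 0.32 (adjusted p = 1.7e-05). Growth factor ligands and receptors fell more often than they rose, 14 against 7 of 33 (42.4% and 21.2%). Egfr, the EGF receptor, was higher (0.87 ± 0.22, adjusted p = 0.0067), and Met, the HGF receptor, lower (-0.74 ± 0.197, adjusted p = 0.0098). Igfals, which holds IGF1 in the blood, had 29.4, 60.8 and 59.4 FPKM in sham livers and 17.3, 7.99 and 7.46 FPKM at 6 h. Irs1, the adaptor of the insulin and IGF receptors, had 1.98, 1.72 and 1.42 FPKM in sham livers and 0.215, 0.2697 and 0.161 FPKM at 6 h (-3.001 ± 0.25, adjusted p = 2.2e-06). Among the 6 h livers Igfals was highest in replicate 1, and neither gene overlapped between the groups. Klb, the FGF21 and FGF15 co-receptor, fell from 5.56 ± 1.13 to 1.28 ± 0.373 FPKM (SD, n = 3 each), a difference of -2.14 ± 0.22 (adjusted p = 1.2e-05). Bmper, a BMP-binding protein, had 0.146, 0.0445 and 0.0323 FPKM in sham livers and 2.33, 2.08 and 1.83 FPKM at 6 h, a difference of 4.79 with all libraries and 5.67 without sham replicate 1, and it was 2.49 ± 0.49 above 3 h. Of 16 tested BCL2 family and survival genes 1 rose, 5 fell and 10 were not called (6.25% higher and 31.2% lower). Bbc3 and Bmf, proapoptotic BCL2 family members, had differences of -2.9 ± 0.399 and -3.14 ± 0.41, and Bcl2l1, the survival factor BCL-XL, one of 1.599 ± 0.29.

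Genes of DNA replication were not higher at 6 h. Of 36 tested, 0 rose by the edgeR test, at an unadjusted p under 0.05 or by DESeq2 (3 without sham replicate 1), 8 fell (22.2%, near the 18.2% of all tested genes), and 27 were lower than at 12 h. Mcm10, a replication initiation factor, had 5.54, 8.597 and 10.5 FPKM in sham livers and 1.75, 1.39 and 1.75 FPKM at 6 h (-2.36 ± 0.35, adjusted p = 1.9e-04). Tk1, thymidine kinase, had 3.65, 4.63 and 5.15 FPKM in sham livers and 0.919, 0.762 and 1.03 FPKM at 6 h. Ccnd1, cyclin D1, was higher than sham, with 1.7, 4.32 and 3.302 FPKM in sham livers and 12.5, 6.34 and 7.94 FPKM at 6 h, and lower than at 12 h (-1.57 ± 0.3, adjusted p = 0.0021).

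Genes that build the protein synthesis machinery rose. Of 70 ribosome biogenesis genes 46 were higher (65.7%, against 16.8% of all genes) and 1 lower, and of 23 aminoacyl-tRNA synthetase genes 17 were higher than sham (73.9%) and 8 higher than at 3 h (34.8%, against 4.45% of all genes). With scaling by library totals 30 and 9 were higher than sham. Wars, the tryptophan enzyme, had 3.98, 4.71 and 4.44 FPKM in sham livers and 10.4, 14.2 and 12.2 FPKM at 6 h (1.46 ± 0.16 above sham and 0.93 ± 0.15 above 3 h). Rars, the arginine enzyme, had 9.26, 7.86 and 7.36 FPKM in sham livers and 18.2, 21.3 and 21.9 FPKM at 6 h (1.301 ± 0.14 above sham and 1.005 ± 0.14 above 3 h). Among ribosome biogenesis genes, Gnl2 and Ltv1, both needed for subunit maturation, were higher than in sham, 3 h and 12 h livers. Srm, spermidine synthase, and Cad, which starts pyrimidine synthesis, rose by 1.39 ± 0.19 and 1.27 ± 0.29, and were 0.94 and 1.06 above 3 h. Of 76 cytosolic ribosomal protein genes 5 were higher with all libraries (6.58%) and 1 or 2 without sham replicate 3, 6 h replicate 2 or 6 h replicate 3. Their median was 0.21, with 62 of 76 above 0, and 23 were apart from sham upward and 1 downward (43.9% of all genes were apart in either direction). Scaling by library totals moves the median gene by -0.31, more than this median. Of 62 nuclear-encoded respiratory chain genes 1 was called, Cycs, cytochrome c.

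**Figure D3:**
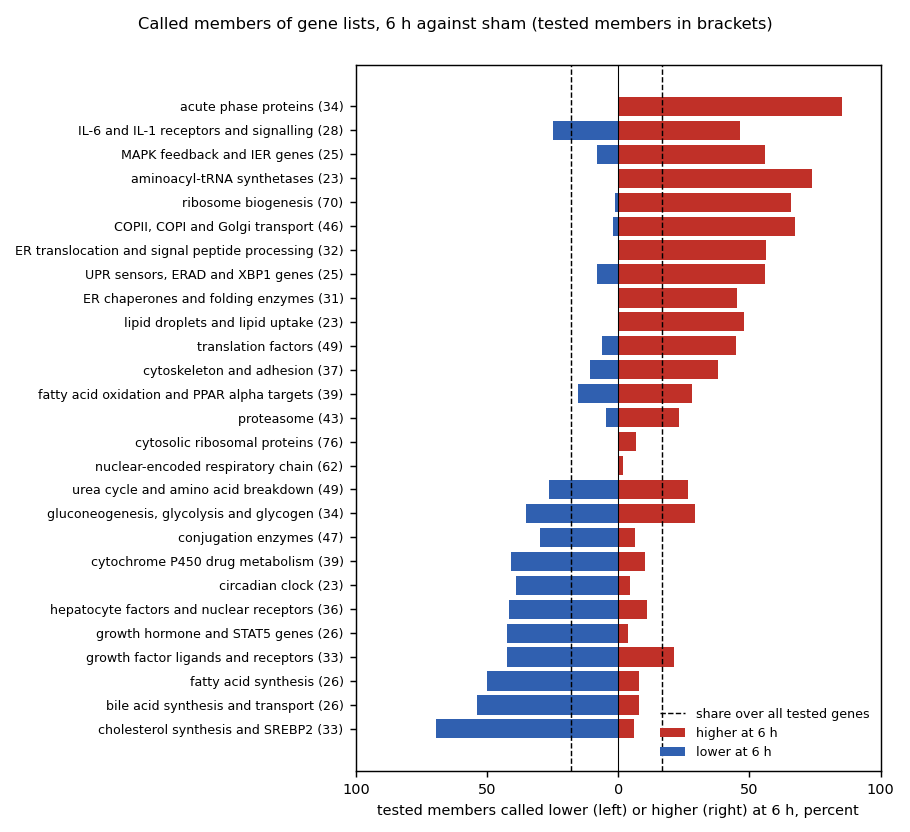
Bars give the percentage of the tested members of each list called higher (right, red) or lower (left, blue) at 6 h, with the number tested in brackets. The dashed lines are the shares over all 11451 tested genes, 16.8% higher and 18.2% lower. Acute phase, tRNA synthetase and COPII genes reach furthest to the right and cholesterol synthesis genes furthest to the left.

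Lipid synthesis genes fell. Of 33 genes of cholesterol synthesis and its regulator SREBP2, 23 were lower (69.7%, against 18.2% of all genes) and 2 higher, with a median of -1.16. Hmgcs1, which starts the pathway, had 146, 67.8 and 56.9 FPKM in sham livers and 14.9, 16.9 and 16.1 FPKM at 6 h (-2.52 ± 0.38, adjusted p = 1.9e-04). Sc5d, a late enzyme, had 222, 129 and 115 FPKM in sham livers and 26.1, 28.3 and 29.3 FPKM at 6 h (-2.501 ± 0.23, adjusted p = 3.6e-06), and Fdft1, squalene synthase, fell by 2.03 ± 0.25. Sham replicate 1 had the highest value of each of these enzymes, and all 6 h libraries lay below all sham libraries. Mvk, mevalonate kinase, Fdft1 and Sc5d were lower at 6 h than in sham, 3 h and 12 h livers. The sterol sensors of the ER parted. Insig1 had 151, 123 and 104 FPKM in sham livers and 17.2, 22.98 and 20.8 FPKM at 6 h (-2.66 ± 0.26, adjusted p = 6.3e-06). Insig2 had 93.5, 68.3 and 82.98 FPKM in sham livers and 334, 275 and 378 FPKM at 6 h (1.99 ± 0.26, adjusted p = 7.7e-05). Of 26 fatty acid synthesis genes 13 (50%) were lower and 9 were lower than at 3 h. Srebf1, the factor that drives them, had 30.9, 40.9 and 41.9 FPKM in sham livers and 6.43, 5.98 and 4.09 FPKM at 6 h (-2.81 ± 0.24, adjusted p = 2.1e-06), and Acly, ATP citrate lyase, fell from 62.5 ± 18.2 to 15.2 ± 2.31 FPKM (SD, n = 3 each). Mlxipl, the glucose-responsive factor ChREBP, had 63.3, 94.9 and 95.6 FPKM in sham livers and 26.6, 27.8 and 22.9 FPKM at 6 h. Both transcription factors were lower in every 6 h library than in every sham library. The riser Lpin1, a phosphatidate phosphatase, had 5.91, 5.76 and 9.01 FPKM in sham livers and 29.5, 35.5 and 45.97 FPKM at 6 h, and the other riser lost its call on leaving out sham replicate 2 or 3 or 6 h replicate 1.

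Genes for storing lipid went the other way, with 11 of 23 lipid droplet and uptake genes higher (47.8%, against 16.8% of all genes) and a median of 0.58. By edgeR and by DESeq2 0 were lower, 1 at an unadjusted p under 0.05 and 3 without sham replicate 1. Plin2, the main droplet coat protein of hepatocytes, had 65.3, 135 and 131 FPKM in sham livers and 1050, 936 and 528 FPKM at 6 h (2.89 ± 0.42, adjusted p = 1.6e-04), with 6 h replicate 3 the lowest of the 6 h livers. Cidec, which fuses droplets, had 0.507, 2.38 and 2.86 FPKM in sham livers and 26.7, 15.1 and 10.7 FPKM at 6 h. Hilpda, an inhibitor of droplet lipolysis, had 0.9603, 1.998 and 1.697 FPKM in sham livers and 10.9, 7.83 and 7.74 FPKM at 6 h. In each of these 3 genes sham replicate 1 was the lowest library and 6 h replicate 3 the lowest of the 6 h livers. Of 39 genes of fatty acid oxidation and PPAR alpha targets 11 were higher and 6 lower (28.2% and 15.4%, against 16.8% and 18.2% of all genes). Slc22a5, the carnitine transporter, had 4.64, 6.37 and 6.11 FPKM in sham livers and 32.5, 29.4 and 17.3 FPKM at 6 h.

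**Figure D4:**
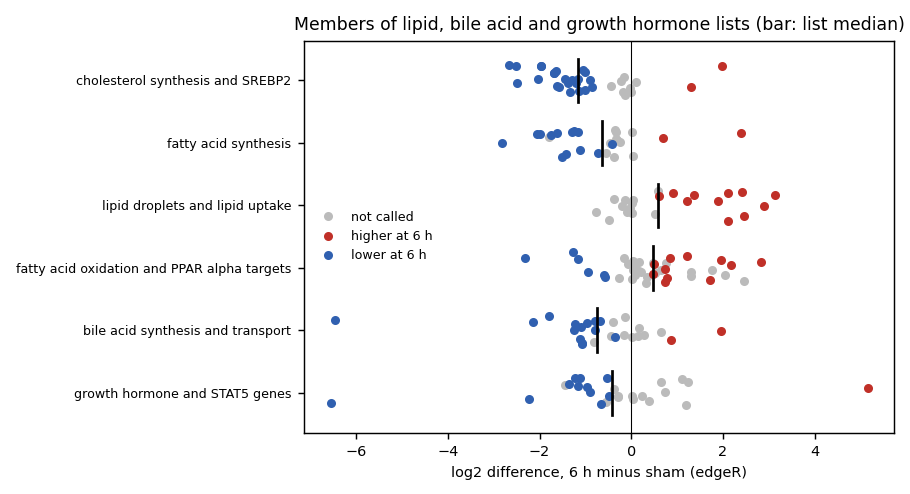
Each point is a tested member of a list, placed at its log2 difference between 6 h and sham and coloured by its call, and the black bar is the list median. The cholesterol synthesis and fatty acid synthesis lists lie left of 0 and the lipid droplet list right of it, with medians of -1.16, -0.64 and 0.58.

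Enzymes of steroid and bile acid metabolism were among the largest falls. Hsd3b5 (chr3:98618634-98630252), a male-typical hydroxysteroid enzyme of mouse liver that depends on growth hormone, had 219.7, 212 and 203 FPKM in sham livers and 2.58, 1.26 and 3.04 FPKM at 6 h. The sham values lay within 20 FPKM of each other, and the 6 h values were far below them. The difference was -6.56 ± 0.52 from sham (adjusted p = 1.4e-06), -3.97 ± 0.47 from 3 h and -4.01 ± 0.47 from 12 h. Hsd3b2, a related gene, had 24.9, 15.3 and 18.4 FPKM in sham livers and 0.418, 0.369 and 0.857 FPKM at 6 h (-5.19 ± 0.39, adjusted p = 8.6e-07). The Hsd3b genes are close copies, so reads may be split between them. Cyp7a1, which starts the conversion of cholesterol to bile acids, had 39.6, 9.61 and 13.6 FPKM in sham livers and 0.3702, 0.218 and 0.123 FPKM at 6 h. Its 12 h values, 13.6, 29.9 and 45.8 FPKM, overlapped those of sham, and the 6 h difference from sham was -6.47, or -5.63 without sham replicate 1, in which it was highest. Clec2h, a C-type lectin gene, had 845 counts over the sham libraries and 10 over the 6 h libraries, a ratio of 0.0119 (95% Clopper-Pearson interval 0.00568 to 0.0220, counting error only). This and all other ratios of summed counts given here are scaled by library totals, whereas the log2 differences use TMM. Of 26 bile acid genes 14 were lower (53.8%, against 18.2% of all genes) and 2 higher, the median being -0.74. Nr0b2, the repressor SHP, had 23.1, 39.99 and 27.1 FPKM in sham livers and 5.77, 12.2 and 8.52 FPKM at 6 h. Slco1b2, the sinusoidal uptake carrier, had 381, 170.4 and 189 FPKM in sham livers and 99.6, 99.8 and 115 FPKM at 6 h (-1.26 ± 0.24). Abcc2, a canalicular pump, had 90.2, 72.9 and 62.5 FPKM in sham livers and 34.6, 28.9 and 34.1 FPKM at 6 h. All 3 were lower at 6 h without overlap.

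The 10 genes named as lowest at 6 h also include Hes6, a HES family factor, which had 21.7, 40.7 and 41.3 FPKM in sham livers and 4.39, 3.02 and 3.34 FPKM at 6 h. Lrrc3, a leucine-rich repeat protein, had 18.6, 20.9 and 20.03 FPKM in sham livers and 3.12, 2.83 and 2.35 FPKM at 6 h (-2.87 ± 0.15, adjusted p = 7.5e-08). Mmp15, a membrane matrix protease, fell from 8.07 ± 3.14 to 0.85 ± 0.314 FPKM, Slc46a3, a lysosomal transporter, from 18.6 ± 2.55 to 3.31 ± 0.364 FPKM, and Tmem150a, a membrane protein, from 76.1 ± 17.4 to 15.2 ± 1.35 FPKM (SD, n = 3 each). Coq8a, a kinase-like factor of coenzyme Q synthesis, had 102, 77.1 and 75.5 FPKM in sham livers and 6.45, 4.11 and 4.605 FPKM at 6 h. It fell by 4.09 ± 0.31 on the log2 scale (adjusted p = 8.6e-07), and at 12 h it was lower still, so that 6 h was 0.87 ± 0.28 above 12 h.

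**Figure D5:**
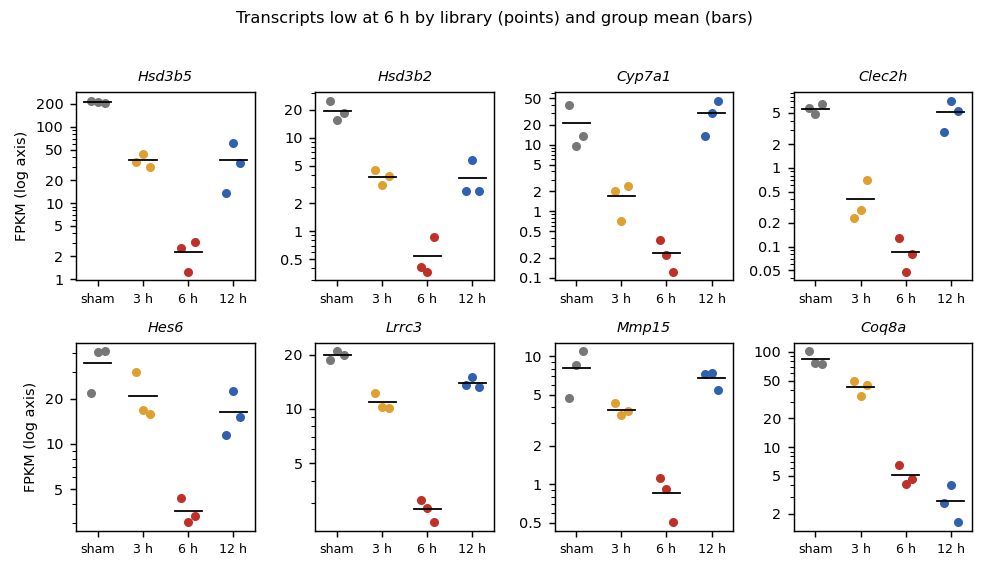
Each panel shows a gene, with the FPKM of every library (points, log axis) by group and the arithmetic group mean (bar). In Hsd3b5, Hsd3b2, Hes6, Mmp15 and Lrrc3 the 6 h points are below all others, Cyp7a1 and Clec2h were back near sham at 12 h, and Coq8a was lowest at 12 h.

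Growth hormone dependent genes, hepatocyte factors and clock genes fell more often than they rose. Of 26 growth hormone and STAT5 genes 11 were lower (42.3%, against 18.2% of all tested genes) and 1 was higher. Ghr, the receptor, had 98.3, 62 and 57.2 FPKM in sham livers and 30.7, 25.5 and 30.3 FPKM at 6 h (-1.36 ± 0.19, adjusted p = 1.0e-04). Stat5b, its signal carrier, had 17.3, 12.6 and 13.7 FPKM in sham livers and 6.29, 6.25 and 6.49 FPKM at 6 h (-1.22 ± 0.16, adjusted p = 5.5e-05). Both were also lower than at 3 h (-0.69 and -0.61). Of 36 hepatocyte factors and nuclear receptors 15 were lower (41.7%) and 4 higher (11.1%, against 16.8% of all genes). Nr3c2, the mineralocorticoid receptor, had 2.18, 1.32 and 1.82 FPKM in sham livers and 0.239, 0.271 and 0.284 FPKM at 6 h. Nr1i3, the xenobiotic receptor CAR, had 3.84, 5.54 and 5.76 FPKM in sham livers and 2.21, 1.69 and 1.17 FPKM at 6 h. Nr3c1, the glucocorticoid receptor, had 17.9, 10.4 and 10.7 FPKM in sham livers and 5.099, 5.17 and 6.02 FPKM at 6 h. None of these 3 receptors overlapped between the groups. Cebpa, a factor of the differentiated hepatocyte, fell by 1.21 ± 0.28, from 74.5, 186 and 169 FPKM to 68.5, 71.8 and 49.7 FPKM, with sham replicate 1 near the 6 h values. Hnf4a was the opposite case, at 71.5, 91.7 and 103 FPKM in sham livers and 159, 159 and 166 FPKM at 6 h (0.83 ± 0.15, adjusted p = 7.6e-04). Of 23 clock genes 9 were lower (39.1%) and 1 was higher. Dbp and Tef, rhythmic activators, had differences of -4.69 ± 0.53 and -2.43 ± 0.32, and Nfil3, which represses their targets, one of 1.67 ± 0.18 (adjusted p = 2.1e-05, 7e-05 and 1.3e-05). Because no hour is given for the sham livers, the time after resection and the hour of day cannot be told apart for these genes.

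Drug metabolism genes were lower more often than higher, 16 against 4 of 39 cytochrome P450 genes (25 lower with scaling by library totals) and 14 against 3 of 47 conjugation enzymes. The shares lower were 41% and 29.8%, against 18.2% of all tested genes. Cyp2u1 had 12.3, 13.5 and 9.92 FPKM in sham livers and 1.15, 1.58 and 1.05 FPKM at 6 h (-3.26 ± 0.22, adjusted p = 4e-07), and Cyp3a25, a major drug oxidase, fell from 409.8 ± 119 to 125 ± 13.2 FPKM (SD, n = 3 each). Cyp2b10, the usual target of CAR, was higher, with 0.947, 1.27 and 0.739 FPKM in sham livers and 7.75, 10.9 and 9.83 FPKM at 6 h, while Nr1i3 was lower. Nnmt, which methylates nicotinamide, had 19.8, 35.3 and 28.97 FPKM in sham livers and 482, 503 and 496 FPKM at 6 h, more than 10 times its sham values in every 6 h library and also higher than at 3 h and 12 h (4.11 ± 0.22, 0.94 and 0.66). Sult1a1, a phenol sulfotransferase, had 105, 106 and 114 FPKM in sham livers and 443, 403 and 421 FPKM at 6 h (1.93 ± 0.17, adjusted p = 2.5e-06). Among called protein-coding genes, the largest losses in FPKM outside these lists were those of Sord, sorbitol dehydrogenase, at 366, 414 and 426 FPKM in sham livers and 121, 107 and 104 FPKM at 6 h (-1.89 ± 0.16, adjusted p = 1.9e-06), and Inmt, a methyltransferase, which fell from 469.5 ± 19.5 to 191 ± 21.6 FPKM (SD, n = 3 each). Car3, carbonic anhydrase, had the largest loss among all called protein-coding genes, with 2120, 1206 and 1123 FPKM in sham livers and 787, 815 and 971 FPKM at 6 h. However, its difference of -0.82 ± 0.23 was -0.47 without sham replicate 1, and its call was lost without 6 h replicate 1 or 2.

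In sugar and amino acid metabolism the lists were split, with 10 of 34 genes of gluconeogenesis, glycolysis and glycogen higher and 12 lower, and 13 of 49 urea cycle and amino acid genes higher and 13 lower. These are 29.4% and 35.3% of the first list and 26.5% each way of the second, against 16.8% and 18.2% of all tested genes. Ppp1r3b, which targets phosphatase to glycogen, had 28.4, 25.1 and 42.4 FPKM in sham livers and 8.88, 8.91 and 9.67 FPKM at 6 h. Ldha, lactate dehydrogenase, had 119.9, 189.6 and 199.7 FPKM in sham livers and 793, 839.9 and 652 FPKM at 6 h (2.14 ± 0.21, adjusted p = 6.6e-06). Pfkfb3, an activator of glycolysis, had 0.4903, 0.6897 and 1.27 FPKM in sham livers and 14.4, 9.32 and 21.6 FPKM at 6 h. All these groups were apart, with the glycogen gene lower and the glycolytic genes higher at 6 h. Mat1a, which makes the methyl donor SAM, had 536, 446 and 469.9 FPKM in sham livers and 2872, 2899 and 2564 FPKM at 6 h (2.49 ± 0.18, adjusted p = 6.3e-07). Aass, of lysine breakdown, had 88.5, 55.4 and 57.99 FPKM in sham livers and 338, 273 and 487 FPKM at 6 h. Arrdc4, a glucose-responsive arrestin, had 4.28, 3.29 and 1.67 FPKM in sham livers and 32.1, 16.6 and 21.5 FPKM at 6 h and was highest at 6 h (1.52 above 3 h and 2.98 above 12 h), while its relative Arrdc3 fell to 2.74, 2.65 and 2.77 FPKM from 46.96, 26.99 and 13.8 FPKM. Fkbp5, a glucocorticoid target, had 0.721, 1.64 and 1.41 FPKM in sham livers and 16.6, 15.8 and 24.1 FPKM at 6 h (3.87 ± 0.33, adjusted p = 2.6e-06).

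Of 29 iron and zinc genes 13 were higher (44.8%, against 16.8% of all tested genes) and 6 lower (20.7%, near the 18.2% of all genes). Hamp, which encodes hepcidin, the hormone that blocks iron export, had 1023, 1191 and 1408 FPKM in sham livers and 5075, 5275 and 5280 FPKM at 6 h, and was higher than in sham, 3 h and 12 h livers (2.08 ± 0.21, 1.09 and 0.697). Slc39a14, the zinc and iron importer ZIP14, had 13.1, 15.4 and 15.9 FPKM in sham livers and 95.5, 87.8 and 139 FPKM at 6 h (2.83 ± 0.22, adjusted p = 1.2e-06). The metal reductases of the STEAP family went opposite ways. Steap4 had 29.2, 23.3 and 25.2 FPKM in sham livers and 638, 711 and 1041 FPKM at 6 h. Steap3 had 5.05, 4.75 and 4.98 FPKM in sham livers and 0.922, 0.8404 and 0.722 FPKM at 6 h, lower also than at 3 h and 12 h (-1.53 and -1.08). Hmox1, which breaks down haem, had 3.898, 9.43 and 6.12 FPKM in sham livers and 25.1, 14.6 and 45.5 FPKM at 6 h. Gclc, of glutathione synthesis and a target of the same factor NRF2, had 120.1, 84.1 and 86.4 FPKM in sham livers and 25.9, 30.97 and 43.2 FPKM at 6 h. Of the 29 NRF2 genes 4 rose and 7 fell, and these shares of 13.8% and 24.1% are near those of all genes.

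Cytoskeleton genes were higher in 14 of 37 cases and lower in 4 (37.8% and 10.8%, against 16.8% and 18.2% of all tested genes). Actg1, a cytoplasmic actin, had 15.1, 33.98 and 26.5 FPKM in sham livers and 346, 231 and 194 FPKM at 6 h (3.32 ± 0.38, adjusted p = 2.5e-05). Tubb6, a beta tubulin, had 3.35, 5.17 and 5.42 FPKM in sham livers and 27.03, 24.3 and 27.5 FPKM at 6 h (2.47 ± 0.19, adjusted p = 1.2e-06). For both, 6 h was not called different from 3 h and was above 12 h, by 2.404 and 1.48. Of 38 heat shock protein genes 13 rose and 4 fell (34.2% and 10.5%), a split that turned to 4 and 9 with scaling by library totals. Hspa13, a microsomal HSP70 protein, had 6.75, 4.17 and 2.78 FPKM in sham livers and 11.5, 15.3 and 14.3 FPKM at 6 h, and was 1.61 ± 0.25 above 3 h, while Fkbp4, a co-chaperone of steroid receptors, had 37.96, 49.5 and 45.5 FPKM in sham livers and 20.3, 16.1 and 16.6 FPKM at 6 h, lower than in sham, 3 h and 12 h livers. Of 39 lysosome and autophagy genes 6 rose and 9 fell, and these shares of 15.4% and 23.1% are near those of all genes. Ctsl, cathepsin L, had 67.1, 77.1 and 74.8 FPKM in sham livers and 241, 179 and 238 FPKM at 6 h. Gabarapl1, a protein of the autophagosome membrane, had 114, 134 and 142 FPKM in sham livers and 37.02, 43.4 and 41.8 FPKM at 6 h (-1.702 ± 0.22, adjusted p = 6.3e-05). Of 20 Wnt target and pericentral genes 8 fell (40%) and 1 rose. Rnf43, a Wnt feedback ligase, had 2.89, 4.001 and 2.59 FPKM in sham livers and 0.985, 1.198 and 0.696 FPKM at 6 h (-1.74 ± 0.25, adjusted p = 1.2e-04).

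Plasma proteins outside the acute phase list were split. Of 26 coagulation and fibrinolysis genes 7 rose and 7 fell, and of 29 complement genes 7 rose and 3 fell (7 without sham replicate 1). The coagulation shares were 26.9% each way and the complement shares 24.1% and 10.3%, against 16.8% and 18.2% of all tested genes. Thbd, the thrombin receptor thrombomodulin, had 0.553, 0.592 and 0.7403 FPKM in sham livers and 7.51, 4.59 and 8.25 FPKM at 6 h (3.39 ± 0.23, adjusted p = 4.3e-07). C3, the central complement protein, had 977, 934 and 899.8 FPKM in sham livers and 2052, 2484 and 1971 FPKM at 6 h (1.18 ± 0.15, adjusted p = 4.7e-05). Klkb1, plasma prekallikrein, fell from 45.2 ± 4.42 to 10.8 ± 1.53 FPKM, and Serpind1, heparin cofactor, from 235 ± 32.6 to 115 ± 3.44 FPKM (SD, n = 3 each).

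Several of the largest rises came in genes with under 1 FPKM in every sham library, some of them with no place in these lists. Syt12, a synaptotagmin, had 0.266, 0.165 and 0.169 FPKM in sham livers and 9.52, 7.64 and 9.57 FPKM at 6 h (5.45 ± 0.31, adjusted p = 1.4e-07). Slc10a6, a sulfated steroid carrier, had 0.0554, 0.0506 and 0.245 FPKM in sham livers and 3.27, 4.92 and 7.28 FPKM at 6 h (5.36, and 6.49 without sham replicate 3), and Ly6d, a surface protein, had 0, 0.867 and 0.349 FPKM in sham livers and 38.3, 15.8 and 5.05 FPKM at 6 h (5.51, 6.64 without sham replicate 2 and 4.599 without 6 h replicate 1). Mt2, a metallothionein, had 3 counts over the sham libraries and 1185 over the 6 h libraries, a ratio of 397 (95% Clopper-Pearson interval 135 to 1927, counting error only). The fitted log2 difference of Mt2 was 8.74, and 11.78 without sham replicate 3, so its size rests on that library. Mt1 had 3.4, 15.02 and 16.4 FPKM in sham livers and 4989, 6516 and 5286 FPKM at 6 h.

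Markers of other cells changed in part. Of 18 neutrophil markers 8 were tested and 4 rose (50%, against 16.8% of all tested genes). S100a8, an abundant granulocyte protein, had 0.763, 0.232 and 0.375 FPKM in sham livers and 1.92, 2.15 and 5.09 FPKM at 6 h. S100a9, its partner, had 0.564, 1.03 and 0.498 FPKM in sham livers and 5.25, 4.35 and 10.3 FPKM at 6 h. Retnlg had 3 counts over the sham and 38 over the 6 h libraries (ratio 12.7, 95% Clopper-Pearson interval 4.04 to 64.4), with a fitted difference of 3.82, or 4.64 without sham replicate 2. The other riser was Lcn2. Without Lcn2 the list summed to 26.2 to 91.1 FPKM in sham livers and 29.6 to 165 FPKM at 6 h, which overlap, and most of each sum above 30 FPKM is G0s2, named here after its values were seen, which hepatocytes also express. Among the untested markers, Cxcr2 had 6 counts over the sham and 50 over the 6 h libraries (ratio 8.37, 95% Clopper-Pearson interval 3.59 to 23.9). Mmp8 had 0 FPKM in every sham library and 0.29, 0.562 and 0.759 FPKM at 6 h. Ly6g, Elane, Ngp, Camp, Ltf, Mmp9 and Stfa2l1 overlapped between the groups, and Mpo, a granule enzyme, was at 0 in all 6 libraries. Of 11 monocyte markers 4 were tested. Cd14, Fn1, which hepatocytes also express, and Plac8 rose by 3.18 ± 0.48, 1.73 ± 0.16 and 0.66 ± 0.2, while Lyz2 had 28.3, 27.5 and 22.4 FPKM in sham livers and 19.3, 20.4 and 17.8 FPKM at 6 h, a difference of -0.47 ± 0.18 that missed the edgeR threshold (adjusted p = 0.052) and was called lower by DESeq2. The whole monocyte list summed to 131 to 143 FPKM in sham livers and 364 to 421 FPKM at 6 h, most of it Fn1. Of 12 tested Kupffer cell markers 2 rose and 2 fell (4 without sham replicate 1), Marco and Cd163 upward and Slc40a1 and Csf1r downward. These shares of 16.7% each way are near the 16.8% and 18.2% of all tested genes. The whole list of 13 summed to 115 to 162 FPKM in sham livers and 105 to 132 FPKM at 6 h, which overlap, but its share of all counts was 0.0338% to 0.0438% in sham livers and 0.0196% to 0.0246% at 6 h, without overlap. Endothelial markers summed to 82.0 to 91.8 FPKM and 75.8 to 90.8 FPKM, and their share of counts was also lower at 6 h without overlap, 0.0526% to 0.05696% against 0.0355% to 0.0442%. The hepatocyte markers went the same way, with 9.745% to 10.11% of counts in sham livers and 7.82% to 8.70% at 6 h. A lower share of counts was therefore not particular to Kupffer and endothelial markers, but the falls were of unlike size. Relative to sham, the fall was largest in the Kupffer list and smallest in the hepatocyte list among these lists. The sizes were not compared by a test. T and NK cell markers, of which 0 of 14 were tested, summed to 2.44 to 3.53 FPKM and 1.51 to 2.16 FPKM. Of 10 B cell markers 2 were tested and 1 fell (50%, against 18.2% of all tested genes). The whole B cell list summed to 12.5 to 18.4 FPKM in sham livers and 3.97 to 8.22 FPKM at 6 h. Dendritic cell markers overlapped, at 32.4 to 53.9 FPKM in sham livers and 28.0 to 41.3 FPKM at 6 h, and so did their share of counts. The part of these cells in the cytokine results was not tested.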

How the data were processed

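Poly(A) RNA of 12 mouse liver libraries was sequenced, 3 each from sham livers and from 3, 6 and 12 h after resection. The submitters' processing notes name CASAVA 1.8, fastp, HISAT2 2.0.5, featureCounts 1.5.0-p3, DESeq2 1.20.0 and the build GRCm38 (mm10), and strand setting and annotation release are not given in the sources used here. The deposited table holds read counts and FPKM per gene, with the gene length as another deposited column. The deposited FPKM values equal the count divided by gene length and by a library size made from the DESeq2 median-ratio factors, as tested on the table, so they are comparable across libraries. Close copies such as Saa1 and Saa2, Mt1 and Mt2, the Hsd3b and Serpina3 genes, and overlapping or antisense genes, are uncertain because the counting of shared reads is not given.

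Counts were tested with edgeR 4.0.16 (quasi-likelihood, TMM scaling) in R 4.3.3, in 1 model of the 4 groups with 8 residual degrees of freedom, over 11451 of 54532 genes with FPKM of 1 or more in at least 3 libraries. These genes held at least 99.1% of the counts of each library, and the common biological coefficient of variation was 20.6%. P-values were adjusted over all tested genes by Benjamini-Hochberg. Alternatives were DESeq2 1.42.0, limma 3.58.1 on log2(FPKM + 1) and log2(FPKM + 0.1), other scalings, no filter, only the 6 libraries, a replicate block and each library left out, and the script was tested on simulated data. Named genes are the 12 largest called rises and falls of protein-coding genes with a mean of 5 FPKM or more, up to 6 called members per list, the 8 largest gains and losses in FPKM, the 10 highest and the 10 lowest at 6 h, and 20 fixed genes, a few of which are not reported here. The comparison, the 53 gene lists and the 13 marker lists were chosen with earlier results of these data known. Promoter windows came from a RefSeq table (GRCm38.p6) and were matched by symbol.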

Additional observations from a re-analysis of the deposited data

How the results depend on the processing

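Of 356 genes named for the comparison of 6 h with sham, 356 kept their direction and call with median-ratio scaling and 355 with DESeq2, and no setting turned the direction of a called gene. With scaling by library totals, which moves the median gene by -0.31, there were 1048 genes higher and 3686 lower than sham, 325 and 756 against 3 h, 569 and 3090 against 12 h, and 41 highest and 351 lowest at 6 h. The lists then had 19 transport, 7 chaperone, 6 unfolded protein response, 30 ribosome biogenesis and 9 tRNA synthetase genes higher, and 25 cytochrome P450 genes lower. Without a filter on low values 883 genes were lower than at 3 h and 265 lowest at 6 h, with DESeq2 823 and 270, and with only the 6 libraries 9 unfolded protein response genes were higher. Leaving out each sham or 6 h library gave 1585 to 2437 genes higher and 1707 to 2463 lower than sham, 212 to 1068 higher and 189 to 1043 lower than at 3 h, 906 to 2229 higher and 947 to 1971 lower than at 12 h, 53 to 317 highest and 84 to 335 lowest at 6 h, 9 to 16 chaperones and 9 to 13 unfolded protein response genes higher. Without both sham replicate 1 and 6 h replicate 3, 2178 genes were higher than at 12 h. The cause of these shifts was not tested.

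Replicate numbers are shared by the groups. Same-numbered sham and 6 h libraries had correlations of -0.20, 0.14 and -0.26 between their deviations from the group means. With group means of only 3 libraries, this cannot decide whether the numbers pair the samples. With the replicate block 1799 genes were higher and 1947 lower than sham, 351 of the 356 named genes kept their call, and the acute phase count was 29. At these library totals, genes under 1 FPKM were mostly left untested by the filter, and for these only summed counts are given. Some of them differed by more than counting error, such as Cxcl5 with 1 count in sham livers and 45 at 6 h (ratio 45.2, 95% Clopper-Pearson interval 7.71 to 1824) and Cyp2a4 with 110 and 6 (0.0548, 0.0197 to 0.123), both chosen after their values were seen.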

Other observations

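Some of the largest changes at 6 h fell in genes outside the described groups. Kcnk5, a potassium channel, had 4.82, 9.98 and 11.4 FPKM in sham livers and 0.495, 0.744 and 0.195 FPKM at 6 h (-4.2 ± 0.45, adjusted p = 1.3e-05), and at 12 h it had 5.86, 6.77 and 4.23 FPKM. Nrep, a small neuronal protein gene, had 8.41, 7.32 and 7.33 FPKM in sham livers and 0.643, 0.594 and 0.4102 FPKM at 6 h, and 10.3, 15.6 and 8.27 FPKM at 12 h. Nfxl1, an NFX1-like zinc finger gene, had 1.98, 1.64 and 1.15 FPKM in sham livers and 4.37, 5.01 and 6.96 FPKM at 6 h, and its 3 h values of 1.11, 1.16 and 1.5 FPKM overlapped those of sham. Trim39, a ubiquitin ligase, had 2.04, 2.52 and 2.35 FPKM in sham livers and 6.88, 7.92 and 9.28 FPKM at 6 h, and both were higher at 6 h than in sham, 3 h and 12 h livers. Among transcription factors Klf12, a repressor of the KLF family, had 5.18, 2.76 and 3.89 FPKM in sham livers and 0.654, 0.492 and 0.812 FPKM at 6 h, the lowest of the 12 libraries (-2.62 ± 0.25 against sham, -1.72 against 3 h and -2.09 against 12 h).

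Of 4 tested markers of bile duct cells 3 were higher and 1 was lower, where 16.8% and 18.2% of all tested genes were higher and lower. The whole list of 11 summed to 25.9 to 28.4 FPKM in sham livers and 35.3 to 45.2 FPKM at 6 h. Its share of all counts overlapped between the groups, 0.00625% to 0.00729% in sham livers and 0.00687% to 0.00853% at 6 h. Sox9, a factor of these cells that stressed hepatocytes also express, had 2.33, 2.07 and 1.28 FPKM in sham livers and 3.99, 4.91 and 6.46 FPKM at 6 h (1.41 ± 0.33, adjusted p = 0.0049). Mesothelial markers, of which 0 of 6 were tested, summed to 2.37 to 2.99 FPKM in sham livers and 0.812 to 1.198 FPKM at 6 h.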
